A study of Mus musculus with 4 samples.

Results

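Heat shock proteins and their cochaperones were compared between germinal centre B cells of wild-type (wt) and Nsd2 knockout (ko) mice. Members were taken by gene name: the Hspa, Hspb, Hspd, Hspe, Hsph and Hsp90 names, the numbered Dnaja, Dnajb and Dnajc genes (J proteins), the chaperonin subunits Cct2 to Cct8 with Tcp1, the Bag genes and the heat shock factors Hsf. The name rule also takes in Hspbp1, Hspbap1 and Hsf2bp, which bind such proteins. Of 20735 genes listed in any library, 88 matched, and 71 of these had a mean of at least 1 FPKM and were tested among 10883 genes. FPKM is the number of fragments of a gene per kilobase of transcript scaled to the mapped fragments of the library, so levels of different genes can be set side by side.

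The cells were sorted from spleens of C57BL/6 mice, 8 weeks old, immunized with SRBC (sheep red blood cells), and the same strain, age and immunization hold for both genotypes. There were 2 libraries of each genotype. Nsd2 is a histone methyltransferase. The labels name neither the knockout allele nor the cells it is deleted in, and do not say that the libraries are from separate mice. P-values therefore measure the spread between these libraries, which may be technical. Nsd2 itself, listed as Whsc1, lay at 76.9 and 81.4 FPKM in wt 1 and wt 2 and at 31.4 and 34.1 in ko 1 and ko 2, so transcript remained in the libraries labelled ko. The germinal centre marker Bcl6 lay at 81.4 and 85.4 FPKM in wt, against 81.8 and 85.9 in ko, and S1pr2 at 173.3 and 175.2 in wt, against 170.7 and 173.8 in ko. Other germinal centre markers differed: Rgs13 rose from 141.6 and 141.8 FPKM to 189.7 and 186.1 (log2 fold change 0.40, limma adjusted p = 0.00176), and Mef2b fell from 131.8 and 130.8 to 117.7 and 122.0 (-0.13, limma adjusted p = 0.0391). Relative to wt 1, the depth read from the steps between low values was 94.2% in wt 2, 75.5% in ko 1 and 77.4% in ko 2.

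Molecular chaperones bind unfolded or partly made proteins and keep them from aggregating. Hsp70 proteins do so in cycles of ATP hydrolysis that J proteins start and that nucleotide exchange factors, such as the Bag and Hsp110 proteins, end. Hsp90 acts later, on nearly folded kinases and receptors, and the TRiC chaperonin encloses actin, tubulin and other clients in a chamber. In the cytosol the factor Hsf1 switches on a set of inducible chaperones when proteins unfold, while close relatives of these are made at all times. The endoplasmic reticulum (ER) and the mitochondria have chaperones of their own, with their own stress responses.

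The network was expressed at high level and shifted little as a whole. All members together summed to 5998 and 6061 FPKM in wt 1 and wt 2 and to 6263 and 6270 in ko 1 and ko 2, which is 1.26% ± 0.0086 of all FPKM in the wt libraries and 1.30% ± 0.0047 in the ko libraries (SD, n = 2 each). Both ko sums lay above both wt sums, by a ratio of means of 1.04. The 3 most abundant members, the constitutive Hsp70 Hspa8 and the Hsp90 genes Hsp90ab1 and Hsp90aa1, made up 38.9% of this sum in wt and 39.0% in ko. In bulk RNA fewer cells of a type and less RNA per cell cannot be told apart.

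Of the 71 tested members 7 rose and 3 fell in ko (limma, Benjamini-Hochberg adjusted p below 0.05, over all genes tested). That is 14.1% of members, against 12.9% of all tested genes, so the share called was near the background. Upward calls came to 9.86% of members against 6.66% of all genes and downward calls to 4.23% against 6.2%. The groups did not overlap in 56 of the 71 members, which is 78.9% against 61.2% of all genes. Both ko libraries lay above both wt libraries in 35 (49.3%, against 32.4% of all genes) and below them in 21 (29.6%, against 28.8%). Among the 28 members with a mean of at least 50 FPKM, 24 lay higher in ko (85.7%), where 59.6% of the 1687 genes at that level did. Of those between 20 and 50 FPKM 3 of 8 lay higher, of those between 5 and 20 FPKM 9 of 19, and of those between 1 and 5 FPKM 8 of 16.

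Few of these calls held when 1 library was left out. Such a fit leaves 1 library in that genotype, and far fewer of all tested genes were called as well. Without wt 1, ko 1 or ko 2 the members called up were 2, Hspa1b and Hsph1. Without wt 2 they were 4, of which Hspa1b, Hspa1a and Hsph1 had been called with all libraries and Dnajc10 had not. None was called down without any 1 library. With no filter on low values, no member passed (limma, 14 of 20735 genes called), while 19 members lay higher and 10 lower at an unadjusted p below 0.05, which 4152 of the 20735 genes passed. Without a trend of spread on expression 2 rose and 1 fell (4.23% of members, against 4.93% of all genes). With the trend on GC content removed 13 rose and 2 fell (21.1% of members, against 11.3% of all genes).

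**Figure D1:**
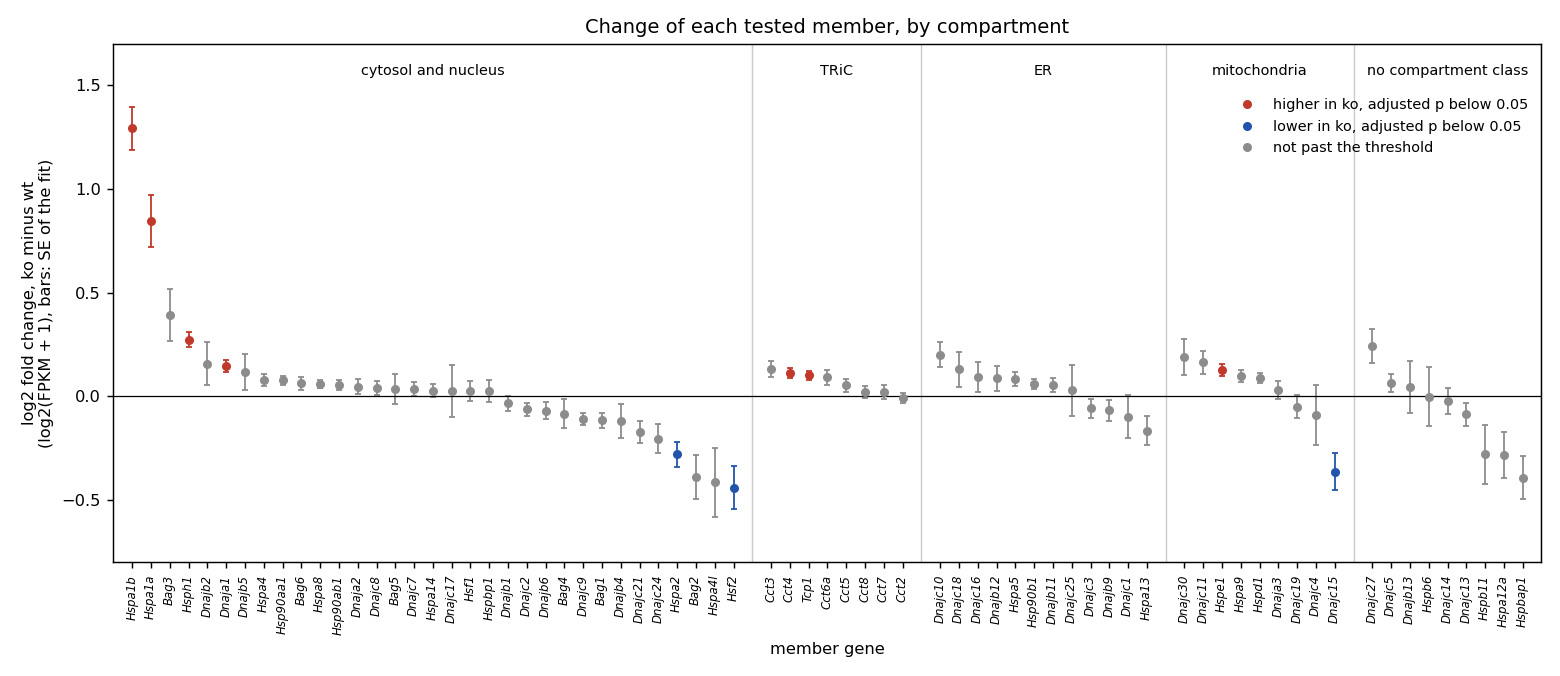
Log2 fold change (ko minus wt, log2(FPKM + 1) scale) of each of the 71 tested members, grouped by compartment, with bars for the SE of the fit over 2 libraries per genotype. The 7 red points are members that rose, led by Hspa1b at 1.29 and Hspa1a at 0.85, and the 3 blue points are those that fell, Hspa2, Hsf2 and Dnajc15.

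Among tested members the heat-inducible Hsp70 pair had the largest fold changes on the log2(FPKM + 1) scale. Hspa1b (ENSMUSG00000090877, GRCm38 chromosome 17, 34956436 to 34959238, minus strand), an Hsp70 that resting cells make in small amounts, measured 1.84 and 2.29 FPKM in wt 1 and wt 2 and 6.21 and 6.78 FPKM in ko 1 and ko 2. Both ko libraries lay far above both wt libraries. The ratio of means was 3.14, and the log2 fold change on the log2(FPKM + 1) scale was 1.29 ± 0.11 (SE, limma adjusted p = 0.00305). Its neighbour Hspa1a (ENSMUSG00000091971, chromosome 17, 34969190 to 34972156, minus strand) encodes nearly the same protein. Hspa1a measured 0.79 and 1.13 FPKM in wt, against 2.57 and 2.45 in ko. Again the groups were apart, with a ratio of means of 2.62 and a log2 fold change of 0.85 ± 0.13 (limma adjusted p = 0.0146).

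Reads of the pair cannot be separated with certainty, since the genes are nearly identical, so their sum is the firmer value. Summed, they came to 2.63 and 3.42 FPKM in wt, against 8.78 and 9.23 in ko, a log2 fold change of 1.32 ± 0.11 (limma adjusted p = 0.00329, an alternative chosen after the data were seen). Roughly 60 to 81 fragments of Hspa1a and 133 to 155 of Hspa1b lay behind each wt value, and 144 to 147 and 337 to 377 behind each ko value, on an approximate scale. Hspa1l, the third gene of this cluster, lay between 0.065 and 0.165 FPKM. The call of Hspa1b held when any 1 library was left out (adjusted p = 0.00589 to 0.0214). That of Hspa1a did not hold without wt 1 (0.0516), ko 1 (0.0549) or ko 2 (0.0536). With no filter on low values the adjusted p was 0.078 for Hspa1b and 0.0988 for Hspa1a.

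The promoters of the pair are shown because their summed RNA was higher in both ko libraries and because Hsf1 binds pairs of GAA and TTC blocks. Whether each gene moved cannot be told with certainty from shared reads, and Hsf1 binding was not measured. The 250 bases before the start of Hspa1a and Hspa1b are 98.8% identical, and they differ by C44T, T47C and T249G, with the Hspa1a base first and positions counted from 1 at the 5′ end of the 250 bases. In the stretches shown, from position -220 to -81 relative to the start, capitals mark a paired heat shock unit, GAANNTTC or TTCNNGAA on either strand. They lie at chr17:34972237-34972376 and chr17:34959319-34959458, both on the minus strand of GRCm38.p6, and come from RefSeq.
Hspa1a: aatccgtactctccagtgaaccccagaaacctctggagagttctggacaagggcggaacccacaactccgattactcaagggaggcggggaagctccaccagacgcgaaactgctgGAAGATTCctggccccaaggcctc
Hspa1b: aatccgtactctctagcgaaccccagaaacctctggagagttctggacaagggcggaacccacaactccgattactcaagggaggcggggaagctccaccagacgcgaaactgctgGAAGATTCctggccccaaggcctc
The unit lay at -104 to -97 in both, and such a unit was found in 15.1% of all RefSeq promoters searched.

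**Figure D2:**
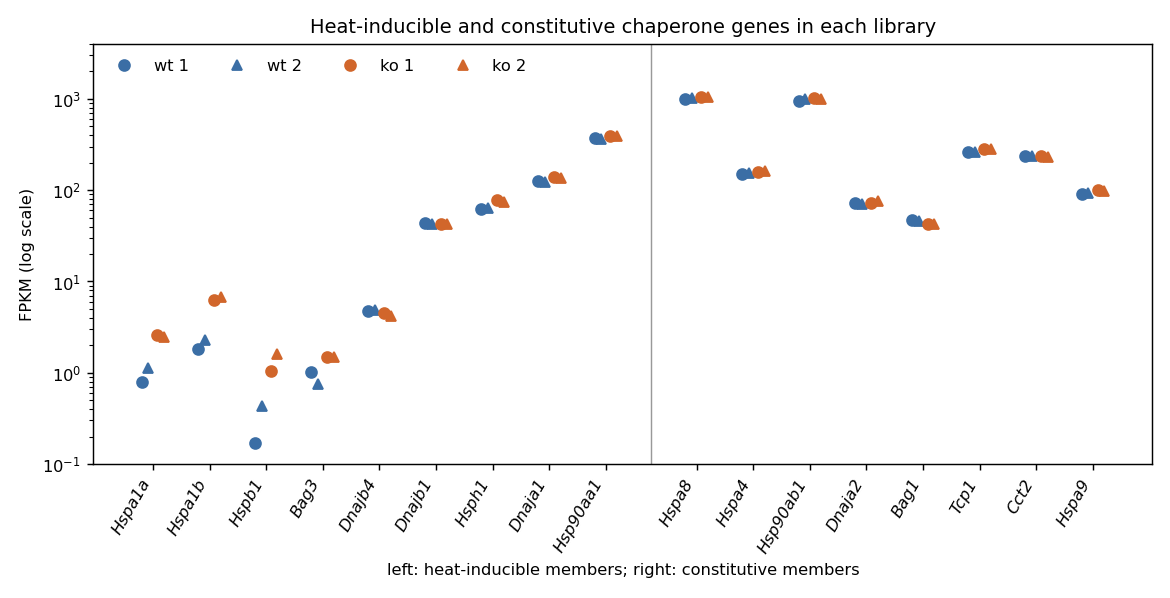
FPKM (log axis) of the 9 listed heat-inducible members on the left and 8 constitutive members on the right, with circles for replicate 1, triangles for replicate 2, blue for wt and orange for ko. Hspa1a, Hspa1b, Hspb1 and Bag3 are low and higher in both ko libraries, while Dnajb1 and Hspa8 are almost level across the 4.

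Of the other tested heat-inducible members Hsph1 and Dnaja1 rose. Hsph1, an Hsp110 protein that releases nucleotide from Hsp70, measured 63.0 and 64.0 FPKM in wt, against 78.9 and 75.0 in ko. Every ko value exceeded every wt value, for a log2 fold change of 0.27 ± 0.04 (limma adjusted p = 0.0113), and the call held without any 1 library (0.031 to 0.0439). It was lost with no filter on low values (0.0862) and without the trend of spread on expression (0.0563). Dnaja1, a J protein partner of Hspa8 and of the inducible Hsp70s, rose from 126.2 and 124.4 FPKM in wt to 140.4 and 137.0 in ko, by 0.15 ± 0.03 on the log2 scale (limma adjusted p = 0.0263). The groups did not overlap, but the call was lost when any of the 4 libraries was left out (0.07 to 0.1). Dnaja1 shares its locus with Smu1, on the opposite strand, at a mean of 45.7 FPKM.

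Bag3 and Hspb1, which act in the same cytosolic stress response, were near the limit of what was tested. Bag3, a cochaperone that steers Hsp70 clients to autophagy, measured 1.03 and 0.76 FPKM in wt, against 1.47 and 1.49 in ko. Both ko values were higher, but the log2 fold change of 0.39 ± 0.12 did not pass (limma adjusted p = 0.0845). The small heat shock protein Hspb1 (mouse Hsp25) lay at 0.17 and 0.44 FPKM in wt, against 1.05 and 1.60 in ko, on roughly 4, 10, 19 and 30 fragments. Its mean was under the filter of 1 FPKM, and with no filter the log2 fold change was 0.83 (limma adjusted p = 0.126). Its promoter is shown because it holds 2 paired units, in capitals, within chr5:135887779-135887858 on the plus strand (GRCm38.p6, RefSeq).
Hspb1: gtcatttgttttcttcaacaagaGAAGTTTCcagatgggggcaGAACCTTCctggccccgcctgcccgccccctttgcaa
Hspa1a and Bag3 passed the filter with wt means below 1 FPKM, that is through their ko values.

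The remaining heat-inducible genes did not pass the test. Dnajb1, a J protein and a classic Hsf1 target, was 43.9 and 43.1 FPKM in wt, against 42.4 and 42.5 in ko (log2 fold change -0.03 ± 0.04, limma adjusted p = 0.555). Its ko values lay just under its wt values. Dnajb4, another J protein of the cytosol, was 4.75 and 4.91 in wt and 4.55 and 4.21 in ko (log2 fold change -0.12 ± 0.08, limma adjusted p = 0.371). Hsp90aa1, the inducible cytosolic Hsp90, was 371.0 and 368.5 in wt and 389.8 and 390.4 in ko (log2 fold change 0.08 ± 0.02, limma adjusted p = 0.0649). Both its ko values were higher, and the gene passed once the GC trend was removed (0.0204). Hspb8 was listed in no library. In all, 4 of the 8 tested heat-inducible members rose and none fell, where 6.66% of all genes rose and 6.2% fell. The 3 members that fell were placed in no induction class. The heat-inducible count holds members which passed the filter through their ko values. It also enters Hspa1a and Hspa1b separately, although their reads cannot be separated with certainty. Whether the calls of this pair are independent was not tested. The tested heat-inducible members, with the pair again entered separately, had a median log2 fold change of 0.21, against 0.01 over all tested genes. With no filter the 9 listed ones had a median of 0.27, and among those with a mean of at least 5 FPKM the median was 0.11. Of the 6 with a wt mean of at least 1 FPKM 3 rose, with a median of 0.11 (an alternative chosen after seeing the data). The 6 leave out Bag3 and Hspa1a, so only Hspa1b of the pair is counted there.

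Some markers of handling and of other cells moved beside this group, and others did not. Of 14 immediate early and handling genes 12 were tested and 4 rose, Nr4a1, Ier2, Jund and Fos (log2 fold changes of 0.55, 0.35, 0.20 and 0.14). None fell, where 6.66% of all genes rose and 6.2% fell. Of the 12, 8 lay higher and 4 lower in ko. Fosb (14.38 and 13.45 in wt, 12.32 and 12.34 in ko) and Egr1 (19.7 and 19.9 in wt, 18.66 and 18.15 in ko) lay lower in both ko libraries. The sums over all 14 were 349.8 and 342.5 FPKM in wt, against 371.2 and 378.8 in ko. Sums over 8 macrophage markers were 6.73 and 5.83 FPKM (wt) and 9.53 and 9.93 (ko), and of the 2 tested Lyz2 rose. The larger part of each sum was Cd68 (5.11 and 3.89 in wt, 5.25 and 5.84 in ko). Cd68 was tested and did not pass (limma adjusted p = 0.202), though both its ko values were higher. Of the untested ones, Adgre1, Csf1r, C1qa, Mertk and the more abundant entry of Itgam lay higher in both ko libraries. Adgre1 was 0.325 and 0.251 in wt, against 0.919 and 0.732 in ko. C1qb overlapped between genotypes. Sums over 6 T cell markers, none of them tested, were 0.78 and 0.88 (wt) and 1.86 and 2.01 (ko), with Cd3e and Cd3g at 0 in wt 1. In ko most of the T cell sum was Trac (0.456 and 0.355 in wt, 1.156 and 1.425 in ko). Cd3d, Cd3e and Cd8a, at most 0.189 FPKM, also lay higher in both ko libraries, while Cd4 and Cd3g overlapped between genotypes. Sums over 5 dendritic cell markers were 8.73 and 9.22 (wt) and 11.5 and 10.9 (ko), and the 1 tested, Flt3, rose. Nearly all of the dendritic sum was Flt3 (8.13 and 8.64 in wt, 10.99 and 10.33 in ko). Itgax, Zbtb46, Clec9a and Siglech were at most 0.387 FPKM and overlapped between genotypes. Erythroid marker sums overlapped, at 18.43 and 20.59 (wt) and 20.1 and 20.26 (ko). So did granulocyte marker sums, at 0 and 0.376 (wt) and 0.168 and 0.329 (ko). The B cell gene Cd79a lay at 563.9 to 590.8 FPKM. The part of these markers in the heat-inducible result was not tested.

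The constitutive Hsp70 and Hsp90 of the cytosol were far more abundant and did not pass the test. Hspa8, the Hsp70 that all cells make, measured 995.7 and 1012 FPKM in wt, against 1040 and 1052 in ko. The ko values were both higher, but the log2 fold change of 0.06 ± 0.02 did not pass (limma adjusted p = 0.111). It passed once the GC trend was removed (0.0404). Quantile normalization gave both genotypes the same mean. Under that method a gene of equal rank in every library gets a common value, so this outcome cannot decide on the difference. Per length of transcript, Hspa1a and Hspa1b together made up 0.263% and 0.337% of the RNA of these 3 Hsp70 genes in wt and 0.837% and 0.870% in ko. The share was higher in both ko libraries. Hsp90ab1, the constitutive Hsp90, was 952.4 and 993.1 in wt and 1012 and 1009 in ko (0.06 ± 0.03, limma adjusted p = 0.196). In the Hsp90 pair the shares overlapped between genotypes, with Hsp90aa1 at 28.0% and 27.1% of the pair in wt and 27.8% and 27.9% in ko.

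Hspa2, an Hsp70 known for its part in sperm formation, went the other way. It measured 21.3 and 23.1 FPKM in wt, against 17.6 and 18.7 in ko, with no overlap, and fell by 0.28 ± 0.06 on the log2 scale (limma adjusted p = 0.0335). The call was lost without any 1 library (0.0561 to 0.121). Hspa4, the constitutive Hsp110, was 149.8 and 154.7 in wt and 158.8 and 162.7 in ko (0.08 ± 0.03, limma adjusted p = 0.129). Its relative Hspa4l, at 3.22 and 4.52 in wt and 2.24 and 3.04 in ko, had a log2 fold change of -0.42 ± 0.17 (limma adjusted p = 0.142). The gene listed as Hspa14, a ribosome-associated Hsp70, carries the ID ENSMUSG00000051396, to which GENCODE gives the symbol Gm45902, and lay between 74.7 and 76.8 FPKM in the 4 libraries. Of all 22 constitutive members 2 rose (9.09%, against 6.66% of all genes) and none fell (against 6.2%), with a median log2 fold change of 0.05. The 2 were the TRiC subunits Tcp1 and Cct4, and no constitutive Hsp70 or Hsp90 was called. Another 34 tested members had no induction class, and of these 1 rose (2.94%) and 3 fell (8.82%), with a median of 0.01. All members that fell, Hspa2, Hsf2 and Dnajc15, were in this unclassed group.

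**Figure D3:**
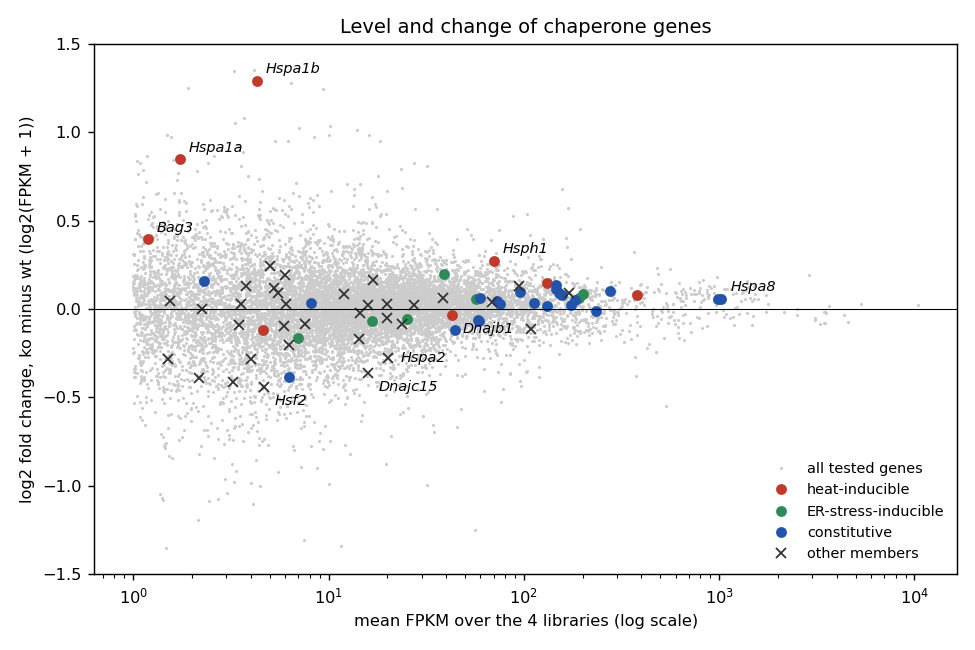
Mean FPKM over the 4 libraries (log axis) against log2 fold change (ko minus wt, log2(FPKM + 1)) for all tested genes in grey and members in colour by their mode of induction. Hspa1a, Hspa1b and Bag3 sit at the low end of expression, Hspa8 and Hsp90ab1 lie near 0 change at the high end, and 7 genes fall outside the plotted range.

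TRiC, the cytosolic chaperonin, was abundant in all libraries, and 2 of its 8 tested subunits rose. Of all genes 6.66% rose, and at a mean of at least 50 FPKM, where all 8 subunits lay, 229 of 1687 genes did. Tcp1 (ENSMUSG00000068039, chromosome 17, 12915701 to 12925067, plus strand), the alpha subunit, measured 264.8 and 265.2 FPKM in wt, against 286.1 and 282.8 in ko. The difference was small but larger than the spread within either genotype (log2 fold change 0.10 ± 0.02, limma adjusted p = 0.0381). Cct4, the delta subunit, went from 140.4 and 139.2 to 150.8 and 151.4 FPKM, again with the groups apart (0.11 ± 0.03, limma adjusted p = 0.0389). Both calls were lost when any 1 library was left out (0.102 to 0.14 for Tcp1 and 0.106 to 0.134 for Cct4) and under quantile normalization (0.113 and 0.0959). Tcp1 shares its locus with Mrpl18 and Acat3, which lie on the opposite strand.

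The other 6 subunits did not pass. Cct3 was 139.4 and 140.7 in wt and 148.4 and 159.3 in ko (0.13 ± 0.04, limma adjusted p = 0.0674), and passed with the trend on GC content removed (0.0462). Cct2, the most abundant of the Cct-named subunits, was 234.6 and 237.5 in wt and 236.0 and 233.1 in ko, overlapping, with a log2 fold change of -0.01 ± 0.02 (limma adjusted p = 0.828) that turned positive, still short of the test, after quantile normalization and with the GC trend removed. Of the 8, 7 lay higher in ko, as did 59.6% of all genes of at least 50 FPKM. Both ko libraries lay above both wt libraries in 5, as in 32.4% of all tested genes, a share taken over all levels. The median log2 fold change was 0.07. The sums of the subunits were 1421 and 1402 FPKM in wt, against 1473 and 1479 in ko, and the ratio of summed means was 1.05. Cct6b, a testis subunit, was listed in 3 libraries at up to 0.164 FPKM.

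In the ER no member passed in either direction among 12 tested, where 12.9% of all tested genes did. Hspa5 (BiP), the ER Hsp70, measured 188.9 and 199.6 FPKM in wt, against 206.3 and 205.3 in ko, and Hsp90b1 (Grp94), the ER Hsp90, 187.3 and 186.9 in wt and 196.3 and 194.4 in ko. For both the ko libraries were higher, with log2 fold changes of 0.08 ± 0.03 and 0.06 ± 0.02 (limma adjusted p = 0.139 and 0.138). Once the GC trend was removed Hsp90b1 passed (0.0342). Dnajc10 (ERdj5), a J protein that reduces disulphide bonds, was 34.2 and 38.5 in wt and 42.6 and 41.1 in ko (0.20 ± 0.06, limma adjusted p = 0.0764). It passed when wt 2 was left out (0.038). Others lay lower in both ko libraries, such as Dnajb9 (ERdj4) at 17.1 and 17.0 in wt and 16.4 and 16.0 in ko, and Hspa13 at 7.57 and 7.36 in wt and 6.41 and 6.68 in ko (limma adjusted p = 0.388 and 0.156). All 7 tested ER-stress-inducible members had groups apart, as did 61.2% of all genes, 4 higher and 3 lower in ko, with a median log2 fold change of 0.05. Plasma cells carry much ER chaperone RNA, and the 6 plasma cell markers summed to 684.0 and 685.3 FPKM in wt, against 678.5 and 677.2 in ko, with none of the 5 tested past the threshold. Most of this sum was Jchain, at 571.9 to 580.8 FPKM, while Sdc1 (1.51 and 1.54 in wt, 1.88 and 1.87 in ko) and Prdm1 (2.90 and 2.94 in wt, 3.27 and 3.42 in ko) lay higher in both ko libraries. The part of plasma cell RNA in these values was not tested.

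Promoters of this group are shown for the ER stress element, CCAAT and CCACG on 1 strand with 9 bases between them, searched on both strands. It was found in 39 of 32851 RefSeq promoters (0.119%), which reach from 250 bases before to 50 after a start. Among the 92 promoters of the 72 members that matched by symbol, it was found in 3, those of Hspa5, Hsp90b1 and Dnajc3. The stretches shown lie at chr2:34772000-34772069 on the plus strand, chr10:86705505-86705574 on the minus strand and chr14:118937802-118937871 on the plus strand (GRCm38.p6), with the element in capitals.
Hspa5: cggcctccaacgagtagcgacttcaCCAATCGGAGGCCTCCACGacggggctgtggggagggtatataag
Hsp90b1: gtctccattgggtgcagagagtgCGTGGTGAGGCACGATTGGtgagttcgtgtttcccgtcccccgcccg
Dnajc3: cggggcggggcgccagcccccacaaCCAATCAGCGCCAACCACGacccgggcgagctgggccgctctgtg
The paired heat shock unit was found in 20 of the 92 member promoters (21.7%) against 15.1% of all promoters, and in 7 of the 8 heat-inducible members in the table, all but Dnajb1. A match describes letters only. No entry was matched for Bag4, Cct4, Dnajc11, Dnajc12, Dnajc18, Dnajc2, Dnajc30, Dnajc5, Hsf1, Hsf4, Hsp90aa1, Hsp90ab1, Hspa13, Hspa8, Hspa9 and Hspb2.

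Mitochondrial members were split between 1 rise and 1 fall among 9 tested (11.1% each, against 6.66% of all genes up and 6.2% down). Hspe1 (Hsp10), the lid of the mitochondrial chaperonin, measured 88.8 and 90.9 FPKM in wt, against 98.3 and 98.45 in ko. The groups were apart and the log2 fold change was 0.13 ± 0.03 (limma adjusted p = 0.038), lost without any 1 library (0.082 to 0.142). Hspd1 (Hsp60), the barrel of the same chaperonin, was 166.5 and 164.3 in wt and 174.4 and 177.5 in ko (0.09 ± 0.03, limma adjusted p = 0.0717). Hspa9 (mortalin), the mitochondrial Hsp70, was 91.7 and 92.2 in wt and 99.4 and 97.4 in ko (0.10 ± 0.03, limma adjusted p = 0.0739). In each of these 3 genes both ko libraries lay above both wt libraries, and with the trend on GC content removed all 3 passed.

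Hspd1 and Hspe1 lie head to head on chromosome 1 and are listed at 1 locus, so their starts share 1 promoter. It is shown because it holds the triple heat shock unit (GAANNTTC followed after any pair of bases by GAA, or TTCNNGAA followed likewise by TTC, which contains the paired unit), found in 198 of all promoters (0.603%) and in those of 4 member genes, Hspd1, Hspe1, Dnajb6 and Hsph1. The stretch chr1:55088028-55088107 on the plus strand of GRCm38.p6, from -120 to -41 relative to the start of Hspe1, has it in capitals as 2 overlapping matches.
Hspe1: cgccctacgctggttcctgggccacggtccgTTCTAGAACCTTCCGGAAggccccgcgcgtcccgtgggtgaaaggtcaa
Dnajb6, which also holds the unit, was 62.5 and 58.4 FPKM in wt, against 57.7 and 57.4 in ko, and did not pass (limma adjusted p = 0.295).

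Dnajc15, a J protein of the inner mitochondrial membrane known as a brake on the respiratory chain, fell. It measured 16.9 and 19.2 FPKM in wt, against 14.9 and 12.8 in ko. The groups did not overlap, though the replicates of each were spread widely, and the log2 fold change was -0.36 ± 0.09 (limma adjusted p = 0.0493). The call lay at the threshold and was lost without any 1 library (0.0516 to 0.159) and with the trend on GC content removed (0.0722). Its relative Dnajc19, of the protein import motor, was 19.8 and 20.9 in wt and 20.2 and 19.0 in ko (limma adjusted p = 0.574).

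**Figure D4:**
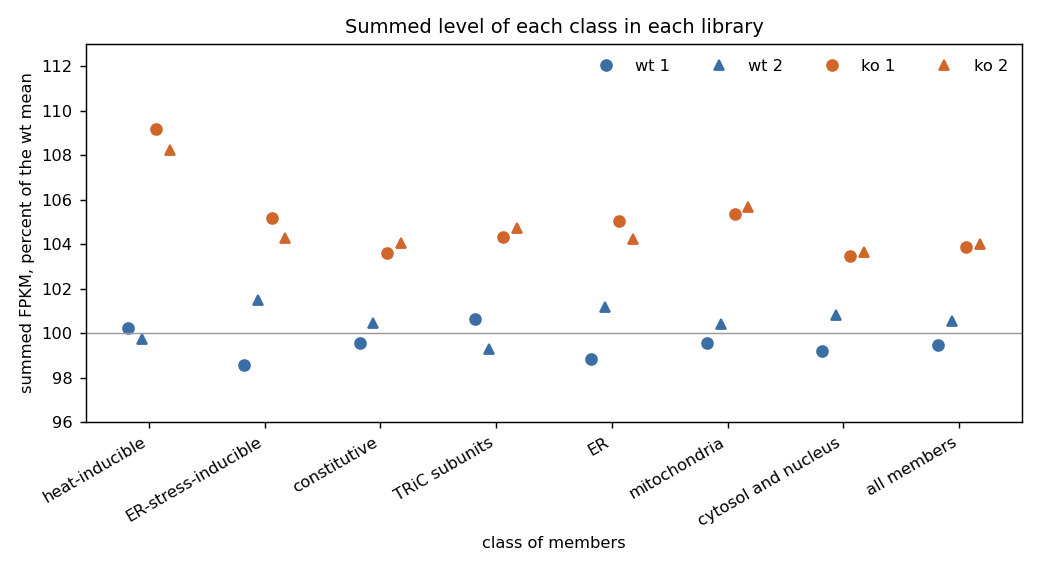
Summed FPKM of each class of members in each library, as a percentage of the mean of the 2 wt libraries, on an axis that does not start at 0. Both ko libraries lie above both wt libraries in the 8 sums shown, furthest for the heat-inducible members at 667.3 and 661.5 FPKM against 612.6 and 609.5 in wt. Most of the heat-inducible sum is Hsp90aa1 (389.8 and 390.4 in ko, 371.0 and 368.5 in wt), which did not pass the test.

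Among the regulators, 1 of the 2 tested heat shock factors fell, where 6.2% of all tested genes did. Hsf1, the main factor of the heat shock response, measured 15.6 and 16.1 FPKM in wt, against 16.2 and 16.1 in ko (log2 fold change 0.03 ± 0.05, limma adjusted p = 0.765). Its RNA therefore overlapped between genotypes, and its activity, which depends on protein state, was not measured. Hsf2, a related factor known from development, fell from 6.03 and 5.01 FPKM in wt to 3.98 and 3.60 in ko. The groups were apart, with a log2 fold change of -0.44 ± 0.10 (limma adjusted p = 0.0434), and the call was lost without any 1 library (0.0501 to 0.169) and with the trend on GC content removed (0.0514). Hsf4 and Hsf5 stayed under 0.5 FPKM in each library.

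None of the 6 Bag genes passed, where 12.9% of all tested genes did, and they lay in both directions. Bag2, an inhibitor of the ubiquitin ligase CHIP, was 7.41 and 6.98 FPKM in wt, against 4.70 and 5.89 in ko (log2 fold change -0.39 ± 0.11, limma adjusted p = 0.0598). Bag1, a nucleotide exchange factor, was 47.1 and 45.5 in wt and 42.3 and 43.0 in ko (-0.12 ± 0.04, limma adjusted p = 0.0884). Both lay lower in both ko libraries, and Bag6, which guards tail-anchored proteins on their way to the ER, lay higher at 60.8 and 61.7 against 59.4 and 57.9 in wt (limma adjusted p = 0.248). Of the 6 Bag genes 3 lay higher and 3 lower.

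Of the 3 tested Dnaja genes Dnaja1 rose, where 6.66% of all tested genes did. Of 22 tested Dnajc genes 1 fell, Dnajc15, and none rose, with 11 higher and 11 lower in ko and a median log2 fold change of 0.0026 (4.55% called, against 12.9% of all genes, a difference that was not tested). Dnajc9, a histone chaperone that peaks in S phase, was 112.0 and 114.6 FPKM in wt, against 103.8 and 105.9 in ko. Its ko values were both lower, short of the threshold (-0.11 ± 0.03, limma adjusted p = 0.0569), and it passed after quantile normalization (0.0327). Dnajc7, Dnajc8 and Dnaja2, at means of 113.3, 68.8 and 72.5 FPKM, had log2 fold changes of 0.03 to 0.05. Among Dnajb genes none of the 9 tested passed, where 12.9% of all tested genes did. Hspbap1, an Hspb1-associated protein, was 2.77 and 2.45 in wt and 1.73 and 1.76 in ko (-0.39 ± 0.10, limma adjusted p = 0.0537) and passed without the trend of spread on expression (0.048).

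Below the filter of 1 FPKM lay 17 members, of which 6 were missing from at least 1 table. Bag3, at a mean of 1.19, was the lowest tested member and Dnajc12, at 0.911, the highest below the filter. Apart from Dnajc12, Hspb1 and Dnajb14 the untested members had means under 0.4 FPKM. They include the small heat shock proteins Hspb2, Hspb7 and Hspb9, along with Dnajb3, Dnajb7, Dnajc6, Dnajc28, Dnaja4, Hspa12b and Hsf2bp. Of the genes with Hspb names Hspb6 and Hspb11 were tested and did not pass (limma adjusted p = 0.997 and 0.228). Locus sharing, where reads of neighbours may not be separated, concerned 31 of the 88 members.

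In the chaperone network outside the name rule, calls were upward. Of 54 such genes in 6 lists 52 were tested, 9 rose and none fell, where 6.66% of all genes rose and 6.2% fell, with 39 higher and 13 lower in ko and a median log2 fold change of 0.07. Most of the 9 had a mean of at least 50 FPKM. At that level 229 of 1687 genes rose and 122 fell, and 59.6% lay higher in ko. A difference of the lists from genes of like level was not tested. Among 16 Hsp90 cochaperones 4 rose. They were Tomm34, which links Hsp70 and Hsp90 (36.6 and 35.5 FPKM in wt, 43.8 and 44.2 in ko), Chordc1, Cdc37, which loads kinases on Hsp90, and Ptges3 (p23), with log2 fold changes of 0.28, 0.19, 0.15 and 0.14 (limma adjusted p = 0.0114, 0.0223, 0.0402 and 0.0405). Stip1 (Hop), which joins Hsp70 to Hsp90, was 92.1 and 93.2 in wt and 98.1 and 99.3 in ko and did not pass (limma adjusted p = 0.0846). Of 13 ER folding genes 5 rose, the lectin chaperones Canx and Calr, the disulphide isomerases Pdia3 and Pdia6, and Sdf2l1, by 0.11 to 0.21 on the log2 scale (limma adjusted p = 0.0150 to 0.0334). None passed among 6 Hsp70 partners, 6 prefoldin subunits and 8 genes of mitochondrial protein quality control. Of 11 heat-responsive genes that are no members, 9 were tested and 1 rose, Chordc1. The ubiquitin gene Ubb lay at 363.6 and 375.3 in wt and 369.6 and 370.5 in ko, overlapping. Fewer of the 52 were called when 1 library was left out, as was so over all tested genes.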

How the data were processed

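mRNA-seq libraries were made from RNA of germinal centre B cells sorted from spleen, 2 wt and 2 ko, per the labels' protocols. The authors deposited FPKM, 1 table for each library, per the file headers. The submitters' processing notes name Bowtie2 2.2.9, TopHat2 2.1.1 and mm10. Which tool made the FPKM, with which annotation and strand setting, was not stated. Genes absent from a table were set to 0 (9 of those tested). FPKM carry no depth, so relative depth came from the spacing of values under 0.15 FPKM. Of 20735 gene IDs, 99.4% matched GENCODE M21 (GRCm38), from which coordinates and strands were taken.

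limma 3.58.1 in R 4.3.3 was run on log2(FPKM + 1) over the 10883 genes whose mean reached 1 FPKM, letting the prior variance follow expression, with Benjamini-Hochberg adjustment at 0.05. This scale understates changes of low genes. For 1 gene alone an exact two-sided permutation test of 2 against 2 cannot go below p = 0.333. The fit was tested on simulated data. Members, classes and lists were chosen with earlier results of these data known, and lists are given as counts and medians. The text names members past the threshold, heat-inducible members, the 10 of highest mean, the Hsf genes, and others of small p or at the filter. Promoters are from RefSeq (GRCm38.p6). The alternatives were other pseudocounts, filters, normalizations, variance settings, a replicate block, GC correction, a looser threshold and leaving out each library. Tables were joined with Python 3.11.15 and pandas 2.3.3.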

Additional observations from a re-analysis of the deposited data

How the results depend on the processing

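The 7 upward calls among members became 0 with no filter on low values, 4 after quantile normalization, 2 without the trend of spread on expression, 13 with the trend on GC content removed, 13 at an adjusted p below 0.10, and 2 to 4 without 1 library. The 3 downward calls became 0, 1 and 8 with no filter, without the trend and at 0.10, and 0 without any 1 library. Over all genes the 725 upward and 675 downward calls became 9 and 5 with no filter, 231 and 305 without the trend, 1345 and 1195 at 0.10, and 156 to 332 and 180 to 263 without 1 library. The 9 upward network calls became 0, 1 and 15 with no filter, without the trend and at 0.10, and 0 to 3 without 1 library. With a replicate block 4 members were called up, and over all genes 482 up and 435 down. The replicate numbers share no stated animal or day, and deviations of same-numbered libraries correlated at -0.083 across genes, so the block is no evidence of pairing.

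Median log2 fold changes moved as follows. With no filter they were 0.0281 for all members, 0.274 for heat-inducible members, 0.0531 for TRiC and 0.0596 for mitochondria. After quantile normalization they were 0.0197 for all members, 0.172 for heat-inducible, 0.0285 for ER-stress-inducible and 0.0163 for constitutive members, 0.0527 for TRiC, 0.0581 for mitochondria and 0.0037 for cytosol and nucleus. With median-of-ratios scaling they were 0.0259 for all and 0.0417 for constitutive members. With the GC trend removed they were 0.241 for heat-inducible members and 0.110 for mitochondria, and the median of cytosol and nucleus turned from 0.0277 to -0.0151. With a filter of 5 FPKM, or with only members of a wt mean of at least 1 FPKM (chosen after seeing the data), the heat-inducible median was 0.111. Without 1 library the medians ran from 0.0336 to 0.051 for all members, from 0.183 to 0.2365 for heat-inducible, from 0.0336 to 0.0688 for ER-stress-inducible, from 0.044 to 0.0546 for constitutive, from 0.0421 to 0.084 for TRiC subunits, from 0.0445 to 0.0719 for ER, from 0.0756 to 0.1012 for mitochondria, from 0.0022 to 0.051 for cytosol and nucleus. Among the members followed through the alternatives, log2 fold changes that crossed 0 were those of Cct2 (0.0028 after quantile normalization, 0.0083 with the GC trend removed), Cct8 (-0.0054 after quantile normalization, -0.0039 to 0.0482 without 1 library, negative without wt 2) and Hsf1 (-0.0157 with the GC trend removed), none past the test. Members beyond these crossed as well. Of the 71 tested, 44 lay higher in ko with the main settings and 41 with the GC trend removed. The cause of these shifts was not tested. Genes near 1 FPKM rest on few fragments, which limits Hspb1, Bag3 and Hspa1a.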
